A study of Homo sapiens with 6 samples.

Results

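Aminoacyl-tRNA synthetases load each amino acid onto its matching transfer RNA, the step that fixes the genetic code before the ribosome reads it. Human cells keep one set of these enzymes in the cytosol and another, mostly encoded by separate nuclear genes, in the mitochondrion. Several cytosolic enzymes are held together with the scaffold proteins AIMP1 and AIMP2 in the multisynthetase complex, and many cytosolic synthetase genes are known targets of ATF4, the transcription factor of the amino acid stress response. The 37 genes described here were taken by name from a list of this family, namely 19 cytosolic synthetases, 16 mitochondrial synthetases and the 2 scaffold proteins. All 37 were found among the 57905 gene identifiers of the deposited table, and all 37 passed the expression filter (a mean over the 6 libraries of at least 1 FPKM, a unit scaled for transcript length and sequencing depth).

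The RNA came from A549, a widely used cell line grown from a human lung adenocarcinoma, transiently transfected for 24 h with miR-19a at 25 nM (3 libraries) or with the negative control microRNA miR-NC at 25 nM (3 libraries). Whether the 3 libraries per group came from independent cultures is not in the labels, so the p-values rest on a spread between libraries that may be technical. Total counts lay between 15699037 and 17957932. Of 7 epithelial and A549 markers, 6 passed the expression filter, and in miR-NC KRT8, KRT18, ALDH1A1 and AKR1B10 lay between 1678 CPM (KRT18) and 6210 CPM (ALDH1A1), where CPM are counts scaled for depth by TMM. EPCAM lay under the filter at 1.53 CPM in miR-NC and 1.95 CPM in miR-19a, and of the 6 tested markers 3 were higher and 2 lower in miR-19a. Of 7 fibroblast markers 6 lay under the filter, and their summed level was 8.52 to 10.6 CPM in miR-NC and 24.9 to 28.9 CPM in miR-19a, nearly all of it COL1A1 (8.93 and 25.6 CPM). The 5 leukocyte markers summed to 0.311 to 0.763 CPM in any library, and 1 of them had no count. The part of these marker differences in the results below was not tested.

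MicroRNAs of the miR-19 family lower transcripts that pair with their seed, so the sequence of the microRNA and the few matches to it among the synthetase transcripts are shown first. In the mature strand (RefSeq, GRCh38.p14, chr13:91350939-91350961, plus strand) the capitals mark the seed, bases 2 to 8.
hsa-miR-19a-3p: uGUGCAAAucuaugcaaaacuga

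In the 3′ UTR of the transcript with the longest coding sequence (GENCODE release 29, GRCh38), 4 of the 37 genes (10.8%) held any match to this seed, against 27.8% of the 10552 tested genes with a 3′ UTR. None of the 37 held an 8mer match (TTTGCACA; 6.06% of tested genes), and HARS1 alone held a 7mer-m8 (TTTGCAC; 7.37% of tested genes). LARS2 held a 7mer-A1 (TTGCACA), and LARS1 and WARS2 each held a 6mer (TTGCAC). The 3′ UTRs of the family were short, with a median of 406 bases (range 35 to 1891) against 999 bases for tested genes, and the part of this length in the low share of matches was not tested. In another transcript model of TARS1, 1 of 7 coding models, a longer 3′ UTR held an 8mer. The matches are printed 5′ to 3′ on the transcript, with the paired bases in capitals, and each lies in an exon.
HARS1 (7mer-m8, chr5:140674170-140674176, minus strand): tcaattgcTTTGCACttttccgt
LARS2 (7mer-A1, chr3:45549362-45549368, plus strand): cagtctcaTTGCACAtggcagtg
LARS1 (6mer, chr5:146113116-146113121, minus strand): ccgtgccaTTGCACtccagctt
WARS2 (6mer, chr1:119032870-119032875, minus strand): tttgtgccTTGCACtccatgca
TARS1 (8mer in the longer model only, chr5:33468363-33468370, plus strand): agagtagaTTTGCACAaatgttta

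Cytosolic synthetases were the more abundant set. Per transcript length, the 19 cytosolic genes had a median of 29.7 FPKM in miR-NC, from 7.13 for CARS1, the cysteine enzyme, to 49.4 for KARS1, the lysine enzyme. The 16 mitochondrial genes had a median of 6.48 FPKM, from 2.37 for VARS2, the valine enzyme, to 55.3 for IARS2, the isoleucine enzyme. IARS2 stood first of all 37 genes at 55.3 ± 1.41 FPKM (SD, n = 3), followed by KARS1 at 49.4 ± 1.51 and NARS1, the asparagine enzyme, at 48.4 ± 0.998. The level of IARS2 lay above those of KARS1 and NARS1 by more than their spread, whereas KARS1 and NARS1 differed by less than theirs. At the other end VARS2 (2.37 ± 0.150), PARS2, the proline enzyme (2.69 ± 0.326), and WARS2, the tryptophan enzyme (2.82 ± 0.206), lay close together. In 14 amino acids a separate cytosolic and a separate mitochondrial gene could be set side by side, and the cytosolic one was higher per length in 12, with a median ratio of 4.27. The exceptions were the isoleucine pair (a ratio of 0.669) and the histidine pair (0.691), and the tyrosine pair stood almost level (1.02). Both exceptions hold in FPKM only. In CPM, not scaled for length, IARS1 was at 274.6 against 230.8 for IARS2 in miR-NC, and HARS1 at 108.3 against 63.5 for HARS2. The lengths behind the deposited FPKM were not given, so the order of genes in FPKM rests on lengths that could not be checked.

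**Figure D1:**
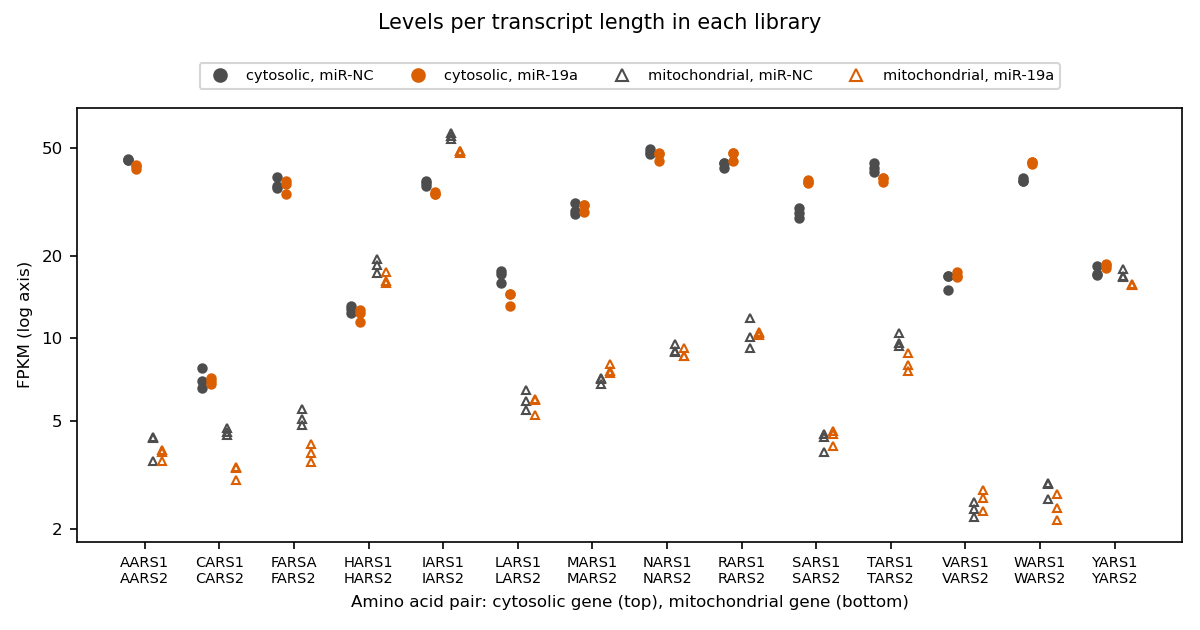
FPKM on a log axis for the cytosolic gene (filled circles) and the mitochondrial gene (open triangles) of 14 amino acids, 1 point per library, grey for miR-NC and orange for miR-19a. The cytosolic gene is higher in 12 pairs, and IARS2 and HARS2 lie above their cytosolic counterparts.

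Most synthetase transcripts differed little between miR-19a and miR-NC. By edgeR's quasi-likelihood test with Benjamini-Hochberg adjustment over all genes, 12 of 37 (32.4%) passed an adjusted p of 0.05, against 48.4% of the 12452 genes tested. Of the 37 genes, 4 were higher in miR-19a (24.9% of all tested genes were) and 8 were lower (23.5% of all tested genes were). The libraries of the groups did not overlap for 15 of 37 genes, against 54% of all tested genes. The median absolute log2 fold change was 0.09 over the family and 0.19 over all tested genes, and no member changed by more than 0.47 in either direction. Among the cytosolic enzymes 3 rose, 3 fell and 13 did not pass, with a median log2 fold change of -0.01. Among the mitochondrial enzymes 0 rose, 5 fell and 11 did not pass, with a median of -0.105, where the median of all tested genes was -0.004. No mitochondrial gene was higher by DESeq2 or by limma either, and 0 were higher at an unadjusted p under 0.05 by edgeR or DESeq2 (1 by limma). The mitochondrial median was -0.042 with a mean FPKM of at least 5 and -0.070 without miR-NC replicate 3. The difference between the sets was not tested as a whole.

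**Figure D2:**
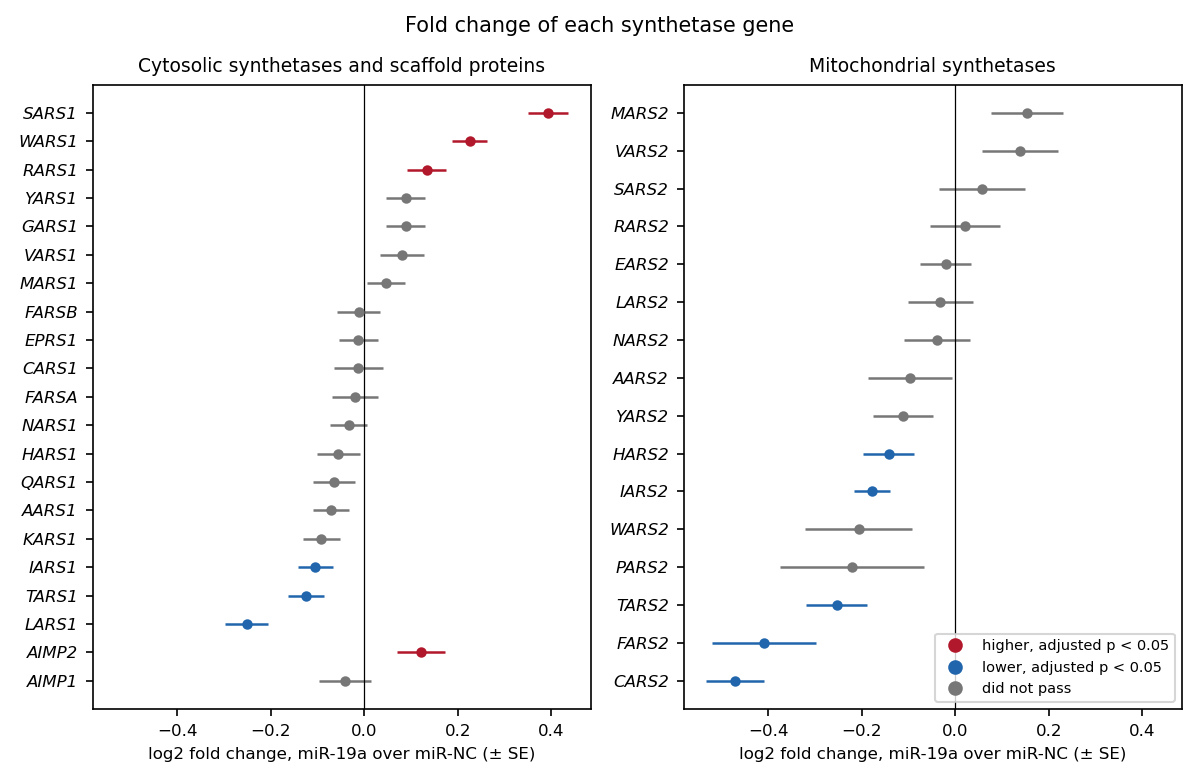
Log2 fold change (miR-19a over miR-NC, points, with bars of 1 standard error from edgeR) for each gene, in red where higher and blue where lower at an adjusted p under 0.05. Cytosolic genes spread to both sides of 0, from -0.25 for LARS1 to 0.39 for SARS1, and the 5 mitochondrial genes that passed all lie below 0.

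Summed over the 16 mitochondrial genes, normalised counts were 664.2, 658.2 and 674.1 CPM in miR-NC and 615.7, 602.2 and 602.9 CPM in miR-19a, a ratio of 0.912. Every miR-19a library lay below every miR-NC library in this sum, to which IARS2 alone gave 230.8 CPM of a mean of 665.5 CPM in miR-NC. The mean of the sum in miR-19a was 606.9 CPM. Much of the fall lay in 2 genes, IARS2 (204.0 CPM in miR-19a) and CARS2 (47.7 CPM in miR-NC and 34.4 CPM in miR-19a). Of the 16 genes 4 had a log2 fold change above 0. The sum over the 19 cytosolic genes was 3023, 2975 and 3010 CPM in miR-NC and 3032, 3039 and 3002 CPM in miR-19a, with overlapping groups and a ratio of 1.01. In bulk RNA a lower level per cell and a smaller number of cells with the transcript cannot be told apart.

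Gene positions are those of GENCODE release 29 on GRCh38. SARS1 (ENSG00000031698, chr1:109213918-109238169, plus strand), the cytosolic serine enzyme, which also charges the selenocysteine tRNA, showed the largest rise. Its level was 116.2, 106.8 and 110.6 CPM in miR-NC and 144.5, 145.7 and 148.0 CPM in miR-19a. All 3 miR-19a libraries stood well above the controls and close to each other. The rise was 31.3%, a log2 fold change of 0.39 (SE 0.043, edgeR adjusted p = 5.8e-12). WARS1 (ENSG00000140105, chr14:100333788-100376805, minus strand), the cytosolic tryptophan enzyme, known also as a gene raised by interferon-gamma, went from 247.2, 242.0 and 239.0 CPM to 286.4, 284.8 and 280.3 CPM. The groups did not overlap, and the log2 fold change was 0.23 (SE 0.038, edgeR adjusted p = 7.7e-07). RARS1, the arginine enzyme of the multisynthetase complex, rose less, by 0.13 (SE 0.042, edgeR adjusted p = 0.00609), with 150.4, 151.2 and 143.8 CPM in miR-NC and 166.7, 166.5 and 155.3 CPM in miR-19a. The lowest miR-19a library of RARS1 lay just above the highest control, and the call was lost on leaving out miR-19a replicate 1 (adjusted p = 0.0537) or miR-19a replicate 2 (0.0510).

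LARS1 (ENSG00000133706, chr5:146113038-146182660, minus strand), the leucine enzyme of the complex and a sensor of leucine for mTORC1, had the largest fall among the cytosolic genes. Its level was 130.5, 141.1 and 142.7 CPM in miR-NC and 119.5, 120.2 and 108.2 CPM in miR-19a, so the groups stood apart. The log2 fold change was -0.25 (SE 0.045, edgeR adjusted p = 3.1e-06), and the only seed match in its 3′ UTR was the 6mer printed above. TARS1, the threonine enzyme, fell by 0.13 on the log2 scale (SE 0.039, edgeR adjusted p = 0.00561), from 251.8, 234.7 and 240.6 CPM to 224.6, 224.3 and 217.9 CPM. Its call ended without miR-NC replicate 1, the highest control (-0.10, adjusted p = 0.0754). IARS1, the isoleucine enzyme of the complex, fell by 0.11 (SE 0.038, edgeR adjusted p = 0.0169), with 269.3, 281.1 and 273.4 CPM in miR-NC and 254.1, 254.0 and 257.6 CPM in miR-19a. The IARS1 groups did not overlap, but the call was lost on leaving out miR-19a replicate 1 (adjusted p = 0.0702) or miR-19a replicate 2 (0.0554), and with no expression filter (0.0546).

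The other 13 cytosolic genes did not pass, and their log2 fold changes ran from -0.09 for KARS1 to 0.09 for YARS1 and GARS1. KARS1 and GARS1 each encode both the cytosolic and the mitochondrial form of their enzyme, for lysine and glycine. KARS1 was at 186.9, 185.7 and 194.8 CPM in miR-NC and 175.4, 175.2 and 181.8 CPM in miR-19a. These groups did not overlap, and the gene lay next to the threshold (-0.09, SE 0.040, edgeR adjusted p = 0.0517). KARS1 passed in 7 of 15 alternative settings, among them leaving out miR-NC replicate 2 (-0.11, adjusted p = 0.0267) or miR-19a replicate 3 (-0.11, adjusted p = 0.0302). GARS1 had overlapping groups, 172.9, 161.2 and 166.7 CPM against 177.7, 183.6 and 171.1 CPM (0.09, SE 0.041, edgeR adjusted p = 0.0714), and passed without miR-NC replicate 1 (0.11, adjusted p = 0.0465) or without miR-19a replicate 3 (0.11, adjusted p = 0.0280). YARS1, the tyrosine enzyme (0.09, adjusted p = 0.0742), passed in only 1 of 15 alternative settings, without miR-NC replicate 3 (0.12, adjusted p = 0.0259). AARS1, the alanine enzyme, kept its groups apart at 203.4 to 205.1 CPM in miR-NC and 190.3 to 196.9 CPM in miR-19a, and did not pass (-0.07, SE 0.039, edgeR adjusted p = 0.121). AARS1 passed in only 2 of 15 alternative settings, limma on log2(FPKM + 1) (-0.09, adjusted p = 0.0447) and on log2(FPKM + 0.1) (-0.09, adjusted p = 0.0463).

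HARS1, the histidine enzyme, which carries the only 7mer-m8 in the transcript models used, did not pass. It was at 111.1, 109.1 and 104.5 CPM in miR-NC and 108.5, 97.9 and 106.1 CPM in miR-19a, with overlapping groups (-0.06, SE 0.046, edgeR adjusted p = 0.330). LARS2 with its 7mer-A1 (-0.03, SE 0.070, adjusted p = 0.734) and WARS2 with its 6mer (-0.21, SE 0.115, adjusted p = 0.134) did not pass either. Of the 4 carriers of a match in the transcript model used, LARS1 alone was called, where 48.4% of all tested genes were called and 23.5% were lower. The other 11 called genes, of which 4 rose, held none there, although TARS1 held an 8mer in its longer model. The part of seed matches in these changes was not tested.

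Smaller values still were found for the bifunctional glutamate and proline enzyme EPRS1 (-0.01), the phenylalanine subunits FARSA (-0.02) and FARSB (-0.01), and CARS1 (-0.01), and each of these 4 had overlapping groups. FARSA and FARSB form a single enzyme, and their levels were 90.5 ± 4.60 and 96.5 ± 3.88 CPM in miR-NC. In miR-19a they were 89.3 ± 5.16 and 95.7 ± 0.963 CPM. The remaining cytosolic genes that did not pass were QARS1, the glutamine enzyme (-0.07), NARS1 (-0.03), MARS1, the methionine enzyme (0.05), and VARS1, the valine enzyme (0.08).

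**Figure D3:**
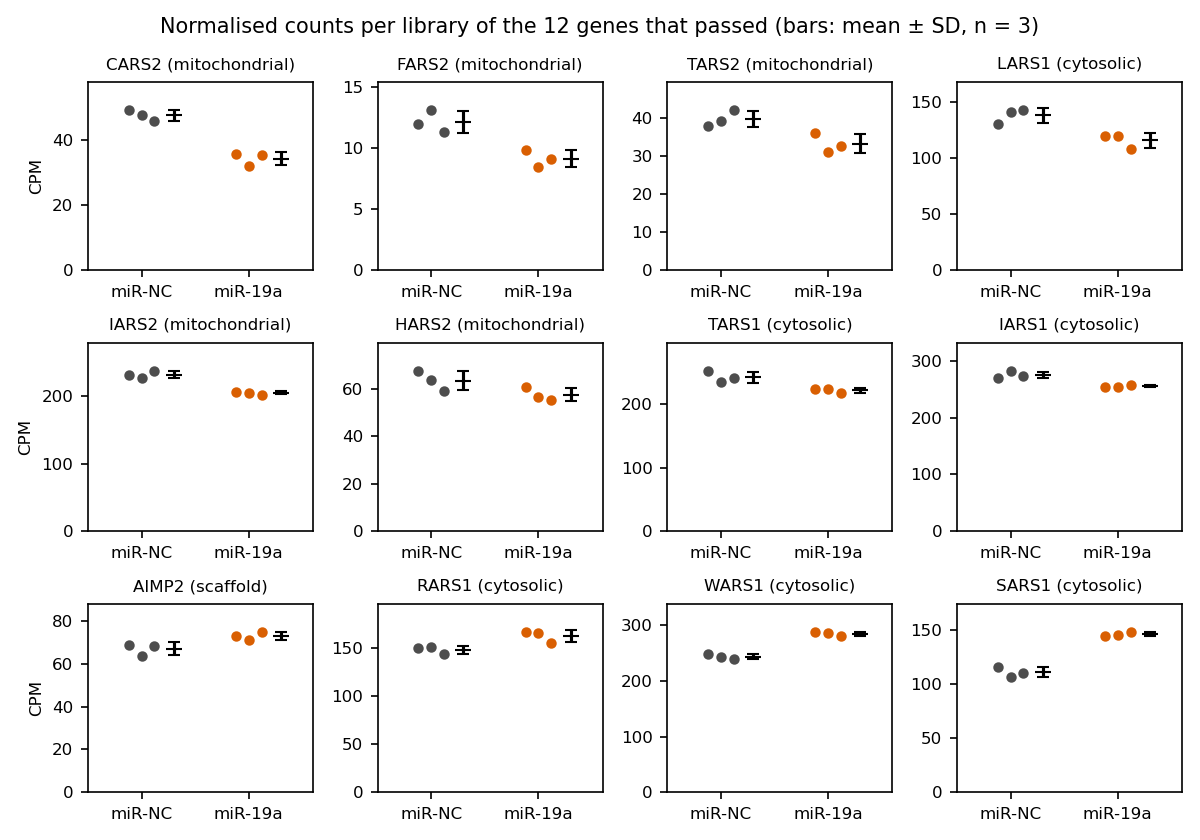
Normalised counts (CPM, axes from 0) of the 12 genes that passed, with 1 point per library and bars for mean ± SD (n = 3 per group), ordered from the largest fall to the largest rise. Relative to their own level CARS2, FARS2 and SARS1 changed most (-27.9%, -24.8% and 31.3%), and HARS2 is the only one of the 12 whose groups overlap.

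The largest fall of the whole family was that of CARS2 (ENSG00000134905, chr13:110641412-110713603, minus strand), the mitochondrial cysteine enzyme, which is also known to make cysteine persulfides. CARS2 was at 49.3, 47.7 and 46.1 CPM in miR-NC and 35.8, 32.0 and 35.5 CPM in miR-19a. The groups stood far apart, and the level fell by 27.9%, a log2 fold change of -0.47 (SE 0.062, edgeR adjusted p = 1.7e-09). Its gene shares 326 exon bases with ING1 on the opposite strand (889 counts in all, against 4054 for CARS2), and without a stated strand setting reads there cannot be told apart. FARS2 (ENSG00000145982, chr6:5261044-5829192, plus strand), the mitochondrial phenylalanine enzyme, fell by 24.8%, from 11.9, 13.1 and 11.3 CPM to 9.82, 8.42 and 9.09 CPM (-0.41, SE 0.111, edgeR adjusted p = 0.00151). The FARS2 groups did not overlap, although the gene rested on only 143 to 209 counts per library. TARS2 (ENSG00000143374, chr1:150487364-150507609, plus strand), the mitochondrial threonine enzyme, went from 37.8, 39.2 and 42.0 CPM to 36.0, 31.0 and 32.7 CPM, again without overlap (-0.25, SE 0.066, edgeR adjusted p = 8.7e-04).

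IARS2 (ENSG00000067704, chr1:220094102-220148041, plus strand), the most abundant mitochondrial member, was at 230.5, 226.1 and 235.8 CPM in miR-NC and 206.0, 204.5 and 201.5 CPM in miR-19a. The groups were clearly separate and the fall was 11.6% (-0.18, SE 0.039, edgeR adjusted p = 8.6e-05). HARS2, the mitochondrial histidine enzyme, had a smaller fall of 0.14 (SE 0.055, edgeR adjusted p = 0.0268), with 67.4, 63.9 and 59.3 CPM in miR-NC and 60.9, 56.4 and 55.5 CPM in miR-19a. Its groups overlapped, and the call ended in 7 of 15 alternative settings, among them leaving out miR-NC replicate 1 (-0.10, adjusted p = 0.216), miR-19a replicate 2 (-0.13, adjusted p = 0.0865) or miR-19a replicate 3 (-0.12, adjusted p = 0.114). HARS2 also shares 437 exon bases with HARS1 on the opposite strand and 152 with ZMAT2 on the same strand (9245 counts in all, against 5993 for HARS2), and reads there cannot be told apart. CARS2, FARS2, TARS2 and IARS2 kept their call and direction in each alternative setting in which they were tested.

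The 11 mitochondrial genes that did not pass ran from -0.22 for PARS2 to 0.15 for MARS2, the methionine enzyme. MARS2 was at 20.7, 21.9 and 21.5 CPM in miR-NC and 23.0, 23.4 and 24.7 CPM in miR-19a, so its groups did not overlap (SE 0.077, edgeR adjusted p = 0.0959). YARS2, the tyrosine enzyme, also had separate groups, 36.3 to 38.6 CPM in miR-NC and 34.1 to 34.7 CPM in miR-19a (-0.11, SE 0.064, edgeR adjusted p = 0.144). YARS2 passed in only 2 of 15 alternative settings, limma on log2(FPKM + 1) (-0.12, adjusted p = 0.0350) and on log2(FPKM + 0.1) (-0.13, adjusted p = 0.0359). PARS2 had the fewest reads of the family, with 73 to 118 counts per library, and an SE of 0.155 to match. SARS2, the serine enzyme (0.06), shares 349 exon bases with MRPS12 on the opposite strand, which had 17071 counts in all against 1590 for SARS2. VARS2, the valine enzyme (0.14), shares 1858 exon bases with GTF2H4 on the same strand (187 counts against 2096). The counts of both therefore depend on how shared reads were assigned. The others were AARS2 (-0.10), NARS2 (-0.04), EARS2, the glutamate enzyme (-0.02), RARS2 (0.02), and LARS2 and WARS2 given above. EARS2 shares 370 exon bases with UBFD1 on the opposite strand (12315 counts against 5412). Of the whole family, 17 genes share exon bases with another gene that has counts. In 10 of them the other gene has at least 10% of the member's count: AIMP1, AIMP2, CARS2, EARS2, HARS1, HARS2, KARS1, SARS2, WARS2 and YARS1.

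Set against each other within a library, the cytosolic and mitochondrial genes of an amino acid give a ratio that does not depend on library scaling. In 5 of 14 pairs this log2 ratio was higher in all miR-19a libraries than in all miR-NC libraries, and in 0 pairs it was lower in all of them. For the levels of single genes, a different quantity, such separation in either direction was seen in 54% of all tested genes. The cysteine pair CARS1 over CARS2 was at 0.52, 0.48 and 0.76 in miR-NC and 1.02, 1.11 and 1.01 in miR-19a, a difference of 0.46, with the cytosolic gene nearly level. The tryptophan pair differed by 0.43, the phenylalanine pair (FARSA over FARS2) by 0.39, the serine pair by 0.33 and the tyrosine pair by 0.20. The leucine pair had the largest difference of opposite sign, -0.22, with overlapping groups. For each of the 5 separated pairs the two-sided exact permutation test gave p = 0.1, the smallest that 3 against 3 libraries allow (adjusted p = 0.28 over 14 pairs). So no pair could pass a threshold of 0.05. The number of separated pairs was 9 without miR-NC replicate 2 and 8 without miR-19a replicate 2. Leaving out a library cannot undo a separation, so this number could only stay the same or rise.

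In the multisynthetase complex 4 of 9 listed members (44.4%) were called, near the 48.4% of all tested genes. RARS1 and AIMP2 rose, LARS1 and IARS1 fell, and EPRS1, MARS1, QARS1, KARS1 and AIMP1 did not pass. AIMP2, a scaffold on which the complex assembles, was at 68.8, 63.5 and 68.4 CPM in miR-NC and 72.9, 71.0 and 74.6 CPM in miR-19a. The groups were narrowly apart (0.12, SE 0.051, edgeR adjusted p = 0.0428). The AIMP2 call ended in 8 of 15 alternative settings, among them leaving out miR-NC replicate 2 (0.09, adjusted p = 0.206), miR-19a replicate 1 (0.12, adjusted p = 0.0941) or miR-19a replicate 3 (0.11, adjusted p = 0.120). Its gene shares 532 exon bases with EIF2AK1 on the opposite strand (15896 counts in all, against 6932 for AIMP2). AIMP1, the scaffold that is also secreted as a cytokine, was at 59.3, 54.0 and 60.7 CPM against 56.3, 57.7 and 55.1 CPM, with overlap (-0.04, SE 0.055, edgeR adjusted p = 0.568). EEF1E1, known as the third scaffold of the complex but not among the 9 listed, did not pass (16.9 ± 0.957 and 15.0 ± 1.13 CPM, -0.17, SE 0.091, edgeR adjusted p = 0.128).

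Synthetases fall into structural classes by the fold of their catalytic domain. Of 18 class I genes 2 rose and 4 fell (median -0.02), and of 16 class II genes 1 rose and 4 fell (median -0.06). EPRS1, which joins both classes in a single chain, was left out, and FARSA and FARSB, subunits of a single enzyme, were counted separately. Called genes made up 33.3% of class I and 31.2% of class II, against 48.4% of all tested genes, and the classes were not tested against each other. Fold changes were above 0 for 8 and below 0 for 10 class I genes, and above 0 for 3 and below 0 for 13 class II genes. Over all tested genes they were above 0 for 6137 and below 0 for 6315. These signs include genes that did not pass.

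ATF4 is known to raise many cytosolic synthetases through C/EBP-ATF response elements near their start sites, so promoters (250 bases before to 50 after the start; RefSeq, GRCh38.p14) were searched for the core TGATGNAA on both strands. Promoters of 32 of the 37 genes were in the RefSeq table. The core occurred in 6 of 16 cytosolic promoters (37.5%), in 1 of 14 mitochondrial promoters (YARS2, 7.14%) and in 1.55% of 9033 promoters of tested genes. The 6 cytosolic stretches are printed on the strand of the gene with the core in capitals, because they mark the members that carry this element. A match is a description of the letters and not of binding.
AARS1 (chr16:70289661-70289718, minus strand): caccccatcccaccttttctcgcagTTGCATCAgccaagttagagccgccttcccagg
CARS1 (chr11:3057393-3057450, minus strand): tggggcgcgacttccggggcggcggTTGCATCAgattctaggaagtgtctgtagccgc
IARS1 (chr9:92293678-92293735, minus strand): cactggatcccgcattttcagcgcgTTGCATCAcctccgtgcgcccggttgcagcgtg
MARS1 (chr12:57488039-57488096, plus strand): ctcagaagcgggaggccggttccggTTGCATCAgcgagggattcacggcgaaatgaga
NARS1 (chr18:57621790-57621847, minus strand): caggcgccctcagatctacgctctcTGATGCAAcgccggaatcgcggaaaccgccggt
TARS1 (chr5:33440942-33440999, plus strand): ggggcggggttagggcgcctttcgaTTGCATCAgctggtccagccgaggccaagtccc

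The core began within 14 bases of the annotated start in CARS1, IARS1, MARS1, NARS1 and TARS1, and 187 bases before it in AARS1. None of these 6 genes rose (24.9% of all tested genes did). TARS1 and IARS1 fell (23.5% of all tested genes did), and AARS1, CARS1, MARS1 and NARS1 did not pass. The 6 fold changes ran from -0.13 to 0.05 on the log2 scale with a median of -0.05. SARS1, WARS1 and RARS1, the cytosolic genes that rose, were among the 10 cytosolic genes whose promoter was in the table without a match in this window. Called genes made up 33.3% of the 6 with the core and 30% of the 10 without it, and the sets were not tested against each other. Of the 12 cytosolic synthetases listed as known ATF4 targets, 2 rose (SARS1 and WARS1), 3 fell (LARS1, TARS1 and IARS1) and 7 did not pass, with a median of -0.01. This is 41.7% called, against 48.4% of all tested genes. The E-box CACGTG, the motif of MYC and related factors, which reads the same on both strands and does not overlap the core, was in 1 of 16 cytosolic promoters (IARS1) and in 3 of 14 mitochondrial promoters (CARS2, EARS2 and MARS2), against 10.4% of promoters of tested genes.

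Other genes of the ATF4 pathway were called in both directions. Of 23 listed genes 10 rose, 7 fell and 6 did not pass (73.9% called, against 48.4% of all tested genes), with a median log2 fold change of 0.03. Their median absolute change was 0.28, against 0.185 over all tested genes and 0.09 over the family, and these differences were not tested. Small changes were also found on this list, among its enzymes of asparagine, serine and folate metabolism. ASNS (-0.05), PSAT1 (0.025), PHGDH (-0.04) and SHMT2 (0.001) did not pass. PSPH (-0.195, edgeR adjusted p = 0.00918) and MTHFD2 (-0.115, edgeR adjusted p = 0.0183) fell. The stress pseudokinase TRIB3 rose by 0.78 (SE 0.043, edgeR adjusted p = 8.1e-25) and DDIT4, which restrains mTORC1, by 0.68 (SE 0.039, edgeR adjusted p = 6.7e-24). SLC7A11, the cystine importer, fell by 0.75 (SE 0.039, edgeR adjusted p = 1.4e-26), and NUPR1, a stress-induced chromatin protein, by 2.14 (SE 0.175, edgeR adjusted p = 6.2e-17), from 8.45 ± 0.416 CPM to 1.90 ± 0.309 CPM. ATF4 itself was at 281.0, 258.2 and 284.6 CPM in miR-NC and 296.3, 287.0 and 299.7 CPM in miR-19a. The groups of ATF4 were apart by a narrow margin (0.10, SE 0.039, edgeR adjusted p = 0.0287), and its call was lost on leaving out miR-NC replicate 2 (0.06, adjusted p = 0.217), miR-19a replicate 1 (0.10, adjusted p = 0.102) or miR-19a replicate 3 (0.09, adjusted p = 0.0911). It was also lost with scaling by library totals alone (0.08, adjusted p = 0.0729) and with limma on log2(FPKM + 1) (0.09, adjusted p = 0.165).

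**Figure D4:**
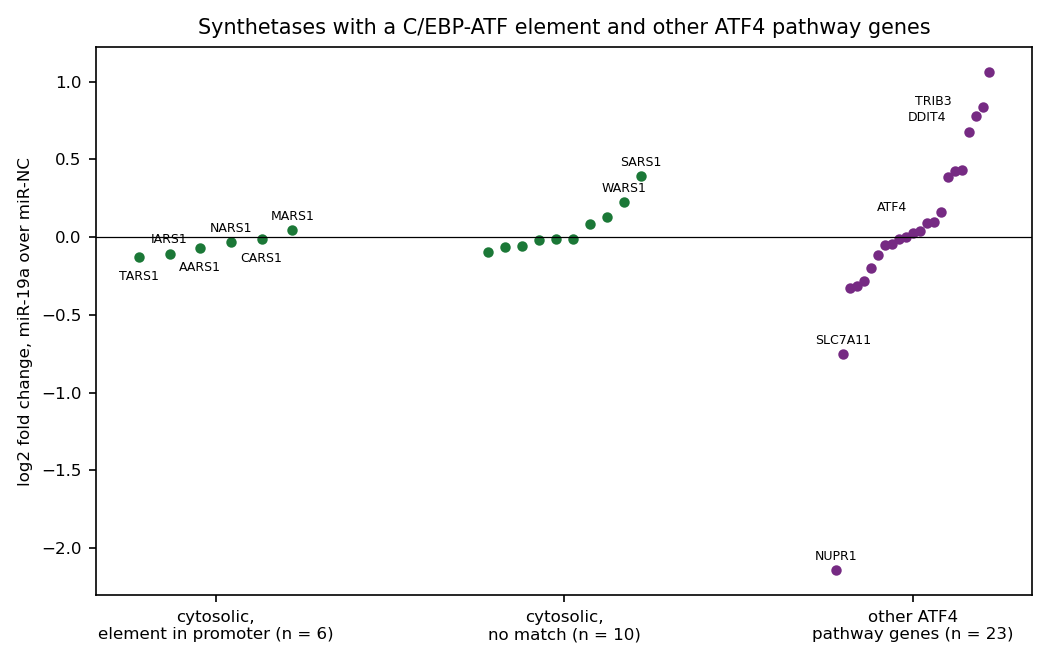
Log2 fold change (miR-19a over miR-NC, 1 point per gene, sorted within each column) of the 6 cytosolic synthetases with a C/EBP-ATF element in the promoter, the 10 cytosolic synthetases with no match, and 23 other ATF4 pathway genes. The first column stays between -0.13 and 0.05, whereas the third runs from -2.14 for NUPR1 to 1.06; the 3 cytosolic genes without a promoter in the table are not drawn.

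Genes that work beside the synthetases in tRNA supply were counted against the 24.9% of all tested genes that were higher and the 23.5% that were lower. Of 10 genes of tRNA processing, export and proofreading 0 rose and 2 fell by edgeR (median -0.10), and 0 rose by DESeq2 or limma or at an unadjusted p under 0.05. XPOT, the exportin that carries tRNA out of the nucleus, was at 160.7, 164.6 and 167.8 CPM in miR-NC and 132.5, 137.0 and 133.5 CPM in miR-19a, with wide separation (-0.29, SE 0.041, edgeR adjusted p = 1.4e-08). ELAC2, which trims the tail of precursor tRNAs, fell by 0.24 (SE 0.042, edgeR adjusted p = 1.6e-06). Of 8 partners of mitochondrial charging and tRNA modification 0 rose and 3 fell by edgeR (median -0.11), again with 0 higher by DESeq2, by limma or at an unadjusted p under 0.05. Among these were PUS1, a pseudouridine synthase, at -0.20 (SE 0.052, edgeR adjusted p = 7.7e-04), and MTFMT, which formylates the initiator methionyl-tRNA of mitochondria, at -0.23 (SE 0.077, edgeR adjusted p = 0.00980), although not without miR-NC replicate 3 (-0.18, adjusted p = 0.0885).

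Of 9 mitochondrial translation factors 1 rose and 3 fell (median -0.11), so that 44.4% were called, near the 48.4% of all tested genes. MRRF, the ribosome recycling factor, fell by 0.42 (SE 0.057, edgeR adjusted p = 2.7e-09), and TUFM, the elongation factor that brings charged tRNA to the mitochondrial ribosome, by 0.17 (SE 0.037, edgeR adjusted p = 8.2e-05). GFM1, an elongation factor of translocation, rose by 0.19 (SE 0.048, edgeR adjusted p = 4.8e-04), a call that ended with limma on log2(FPKM + 1) (0.16, adjusted p = 0.0607). Of 6 cytosolic elongation factors 5 were tested and 0 called by edgeR, DESeq2 or limma, with 0 at an unadjusted p under 0.05 by edgeR or DESeq2 and 1 by limma, and a median of 0.007. On the path that makes selenocysteine from serine bound to tRNA by SARS1, SEPHS2, which makes the selenium donor, fell by 0.44 (SE 0.050, edgeR adjusted p = 1.6e-11), and SECISBP2, which helps decode the codon, rose by 0.33 (SE 0.060, edgeR adjusted p = 4.4e-06), while the other 2 of 4 tested genes did not pass.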

How the data were processed

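Poly(A)-selected RNA of 6 A549 libraries was sequenced from both ends in reads of 150 bases, per the labels' protocols. The submitters' processing notes name bcl2fastq 2.17.1.14. For the aligner, counter, annotation, strand setting and build, nothing was given in those sources. In the deposited table, per the file headers, each library has raw counts and FPKM by the authors, the latter with 2 decimals.

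Counts were tested with edgeR 4.0.16 (R 4.3.3; quasi-likelihood test, TMM factors, two-sided, Benjamini-Hochberg over 12452 genes whose FPKM averaged 1 or more). SE was derived from the log2 fold change and the F statistic. CPM are TMM-scaled. Alternatives were DESeq2 1.42.0, limma 3.58.1 on log2(FPKM + 1) and log2(FPKM + 0.1), other scalings and filters, a replicate block, and each library left out in turn. The edgeR script was tested on simulated counts with the same spread parameter for all genes and far fewer changed genes than were called here. Of 50 genes changed by 1.25-fold 38 were recovered, and 5 of 12252 unchanged genes were called. Exact tests were computed with scipy 1.17.1.

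Gene identifiers were paired with symbols through a table of names and GENCODE release 29. The members and lists, and the promoter motifs, were chosen with earlier results of these data known. The rule gave full statistics to the 6 cytosolic and 6 mitochondrial members with the largest change among those past the threshold, to AIMP1, AIMP2, GARS1 and KARS1 and to any member with an 8mer or 7mer-m8, and named from each other list at most 2 rising and 2 falling genes with the smallest adjusted p, plus ATF4, XPOT and EEF1E1. Members outside it (AARS1, YARS1, MARS2, YARS2, PARS2, LARS2, WARS2) were given statistics after their values were seen. So were ASNS, PSAT1, PHGDH, SHMT2, PSPH and MTHFD2 of the ATF4 list. Same-numbered libraries did not deviate together (correlations of 0.00848, 0.000547 and -0.0310), so the numbers were not taken as pairs.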

Additional observations from a re-analysis of the deposited data

How the results depend on the processing

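Across 15 alternatives the 37 members gave 548 fold changes, of which 501 kept direction and side of the threshold, 21 lost a call and 14 gained one. SARS1, WARS1, LARS1, CARS2, FARS2, TARS2 and IARS2 kept their call in each setting that tested them. The 12 values with the opposite sign belonged to 8 genes that were not called, each with 1 library left out. Over these settings the log2 fold change of CARS1 ran from -0.064 to 0.051, of FARSA from -0.053 to 0.025, of FARSB from -0.045 to 0.007, of LARS2 from -0.087 to 0.027, of EARS2 from -0.044 to 0.013, of EPRS1 from -0.044 to 0.022, of RARS2 from -0.054 to 0.117 and of SARS2 from -0.004 to 0.113. Depth limits PARS2, FARS2 and WARS2 most, the members with the fewest counts.

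With limma on either FPKM scale 5 cytosolic genes were lower. With a mean FPKM of at least 5, which tests fewer genes, 3 mitochondrial genes were called, all lower. The median log2 fold change of cytosolic members was -0.029 with library totals alone, -0.028 with limma on log2(FPKM + 1) and -0.029 on log2(FPKM + 0.1), and -0.044 to -0.006 with 1 library left out. The median log2 fold change of mitochondrial members was -0.121 with library totals alone, -0.042 with the stricter filter and -0.131 to -0.070 with 1 library left out, and members called higher then numbered 2 to 5. The separated pairs numbered 5 to 9, a number that cannot fall when a library is left out. The change of the AARS1/AARS2 log2 ratio ran from -0.030 to 0.111, the change of the NARS1/NARS2 log2 ratio from -0.028 to 0.035, the change of the RARS1/RARS2 log2 ratio from -0.009 to 0.198 and the change of the VARS1/VARS2 log2 ratio from -0.114 to 0.017. Apart from the number of separated pairs, the cause of these shifts was not tested. With a replicate block the number of all genes past the threshold was 5986, and 12 members passed, 4 higher and 8 lower.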
